A study of Mus musculus with 6 samples.

Results

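The glutathione S-transferases (GSTs) and UDP-glucuronosyltransferases (UGTs) were followed in the livers of fasted mice with and without hepatocyte PAK4, a serine/threonine kinase. The protein-coding genes whose symbols begin with Gsta, Gstk, Gstm, Gsto, Gstp, Gstt, Mgst, Ugt1a, Ugt2a, Ugt2b or Ugt3a gave 44 members of 45777 genes in the deposited table, 24 of them GSTs and 20 UGTs. The control mice (WT) carried Pak4 flox/flox without Cre, and the knockout mice (LKO) carried Pak4 flox/flox with Albumin-Cre, a transgene that is active in hepatocytes. Whether Pak4 stayed intact in the other cells of the liver was not tested. Both groups were male C57BL/6 littermates, 8 weeks old and fasted for 24 h, with 3 mice per genotype and 1 liver library per mouse, so both carried the floxed alleles and no unfloxed or Cre-only mice were among the samples. The comparison of LKO with WT asked what the loss of hepatic PAK4 changed in the fasted liver.

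GSTs join glutathione to electrophilic compounds, and UGTs join a sugar, mostly glucuronic acid, to drugs, steroids, bile acids and bilirubin. Both reactions make lipid-soluble compounds easier to excrete, and hepatocytes are a main site of both. The cytosolic GSTs fall into classes named alpha (Gsta), mu (Gstm), omega (Gsto), pi (Gstp) and theta (Gstt), Gstk1 is the kappa enzyme of mitochondria and peroxisomes, and the Mgst genes encode membrane-bound enzymes. The Ugt1a genes share their last exons and differ in the exon that encodes the substrate-binding end, whereas each Ugt2b and Ugt3a gene is a separate gene.

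Total counts were 45934632 to 55205564 in WT and 53936281 to 59576437 in LKO libraries. The factors of the trimmed mean of M-values (TMM), which set the bulk of genes to be equal between libraries, were 1.28 to 1.43 in WT and 0.639 to 0.816 in LKO, and 7SL RNA took 4.55 to 5.24% of counts in WT and 11.2 to 15.8% in LKO. Scaling by total counts in place of TMM moved the median log2 fold change of all genes by -0.86. Limma moved that median by -0.75 on log2(TPM + 1) and by -1.30 on log2(TPM + 0.1). The part of 7SL RNA in these shifts was not tested. Levels are given below as CPM, counts scaled by library total and TMM factor, fold changes are those after TMM scaling unless total counts or TPM, which also takes gene length into account, are named, and shares within a family, which do not depend on the scaling, are given separately. Pak4 itself had 268, 210 and 271 counts in WT mice 1 to 3 and 85, 52 and 149 in LKO mice 1 to 3. After TMM scaling LKO 3 (3.22 CPM) lay level with WT 2 (3.21 CPM), and the log2 fold change of -0.71 ± 0.31 (SE) did not pass in edgeR (adjusted p = 0.10). It was -1.54 with total counts (edgeR, adjusted p = 0.0056) and -1.08 without LKO 3 (edgeR, adjusted p = 0.015). The exons that Cre removes were not given in the sources used here, so a count over the whole gene is a limited check of the genotype.

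Of the hepatocyte markers, Alb, Apoa1 and Cps1 rose and Ttr fell, 3 higher and 1 lower of 6, and all 6 were expressed, with a summed level of 29228 to 34445 CPM in WT and 85270 to 104394 CPM in LKO. Markers of other liver cells moved as well. Kupffer cell markers were higher for 4 of 6 (213 to 333 CPM in WT, 394 to 787 CPM in LKO), endothelial markers for 5 of 6 (198 to 248 against 379 to 416 CPM) and stellate cell markers for 3 of 6 (220 to 261 against 569 to 840 CPM), with none lower. With total counts these became 2, 2 and 1 higher, with 1, 1 and 2 lower. Of all genes tested, 19.6% were higher and 20.5% lower after TMM scaling, and 6.26% and 51.4% with total counts. In TPM the summed levels overlapped between genotypes for hepatocyte (29072 to 33614 in WT, 23146 to 37056 in LKO), Kupffer (180.3 to 296 against 139.75 to 210.5), endothelial (135 to 191 against 95.1 to 148) and stellate cell markers (142 to 181 against 178 to 237). Of the 4 cholangiocyte markers tested 1 was lower (summed level 32.9 to 50.3 against 13.7 to 30.3 CPM), as was 1 of 6 lymphocyte markers (3.55 to 4.89 against 1.86 to 3.66 CPM), and none of the markers was at 0 in every mouse. In whole liver, fewer cells of a type and less RNA per cell cannot be told apart, and the part of other cell types in the results below was not tested.

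Of the 44 members, 39 passed the filter on low counts, with no more than 1 zero among the libraries, and were tested. With edgeR's quasi-likelihood test and a threshold of 0.05 on the adjusted p, 11 members were higher in LKO, 19 were lower and 9 were not called. Over all 18636 genes tested 40.1% were called, 19.6% higher and 20.5% lower, beside 28.2% higher and 48.7% lower among the members. The median log2 fold change was -0.81 over the tested members and -0.04 over all genes. With total counts the split was 5 higher and 27 lower, beside 6.26% higher and 51.4% lower for all genes, and the medians were -1.67 and -0.90. All 19 members lower under TMM were among the 27, joined by 8 of the 9 not called, Gsta2, Gstk1, Gstm2, Gstt1, Gstt3, Mgst3, Ugt1a10 and Ugt2b35. Every LKO mouse lay above every WT mouse in CPM for 10 members (26.1% of all genes) and below for 20 (27.9% of all genes), whereas in TPM 1 member lay above (2.98% of all genes) and 33 lay below (74.9% of all genes). Without LKO 3, whose Pak4 level overlapped that of WT mice, 9 members were higher and 17 lower. That fit called 3436 higher and 3794 lower of the 19146 genes it tested. With every mouse included, 4 of the 21 tested GSTs were higher and 11 lower, and 7 of the 18 tested UGTs were higher and 8 lower. Of those 8 lower UGTs, 7 were Ugt1a genes of 1 locus that share their last exons. Their reads were divided by estimate, so they are not separate measurements, and the 48.7% counts that locus 7 times. The members left untested were Gsto2, Gstt4, Mgst2, Ugt2a1 and Ugt2a2, each with at most 10 counts in any mouse, and Gstt4 and Ugt2a2 had none.

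**Figure D1:**
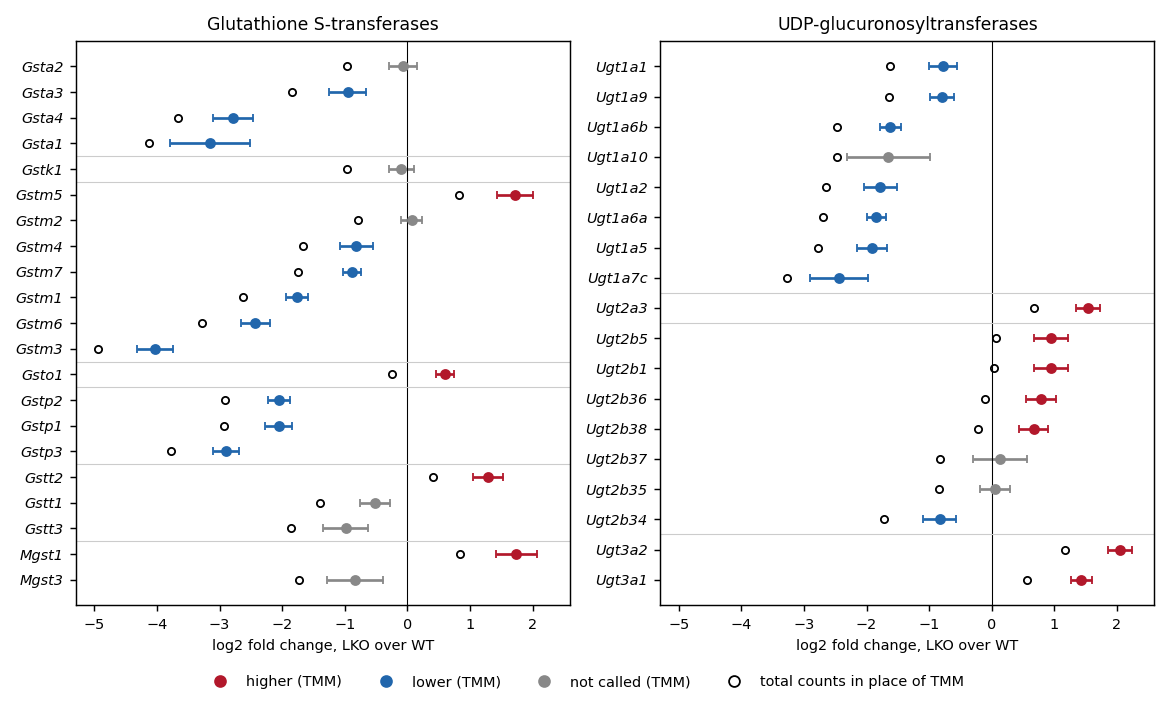
Log2 fold change of LKO over WT for the 39 tested members, with GSTs on the left and UGTs on the right, grouped by class. Filled points with bars are edgeR estimates after TMM scaling ± SE, coloured by call, and open circles are the estimates with total counts; Gstp, Gsta1, Gsta3, Gsta4 and Ugt1a points lie left of 0 under both, whereas Gsto1, Gstm2, Ugt2b35, Ugt2b36, Ugt2b37 and Ugt2b38 lie right of 0 under TMM and left of 0 with total counts.

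The pi class fell as a whole. Gstp1, the most abundant pi-class enzyme here by TPM, was at 771, 564 and 717 CPM in WT mice 1 to 3 and at 170, 191 and 132 CPM in LKO mice 1 to 3. The lowest WT mouse was well above the highest LKO mouse, and the mean of 684 ± 107 CPM (SD, n = 3) in WT was 4.16 times that of 164 ± 30.0 CPM (SD, n = 3) in LKO. Its log2 fold change was -2.06 ± 0.21 (SE; edgeR, adjusted p = 0.000377). Gstp3, the other pi-class neighbour, was at 20.4, 17.2 and 17.2 CPM in WT and at 2.73, 2.75 and 1.88 CPM in LKO, again without overlap, with a log2 fold change of -2.90 ± 0.21 (edgeR, adjusted p = 0.000212). Gstp2 had a log2 fold change of -2.06 ± 0.18. Of the 100-base stretches of the Gstp1 transcript 52.8% also occur in Gstp2, so reads of the pair could be divided either way, whereas Gstp3 shares none. Added up, Gstp1 to Gstp3 came to 823 ± 121 CPM in WT and 196 ± 35.1 CPM in LKO. The ratio of Gstp2 to Gstp1 in TPM was 0.176 ± 0.0104 in WT and 0.176 ± 0.00935 in LKO, so the proportions of the pair overlapped between genotypes while both fell. The 3 genes lie within 24.2 kb on chromosome 19 (chr19:4035411-4059605, GRCm38.p6).

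In the alpha class 3 of 4 members fell and Gsta2 was not called. Gsta1, which acts on products of lipid peroxidation among other substrates, was at 29.1, 21.8 and 16.1 CPM in WT and at 1.18, 5.59 and 0.908 CPM in LKO. LKO 2 stood above the other LKO mice but below every WT mouse, and the log2 fold change was -3.15 ± 0.64 (edgeR, adjusted p = 0.00537). Gsta4, an enzyme known for conjugating 4-hydroxynonenal, fell from 37.5 to 59.99 CPM over the WT mice to 3.96 to 8.86 CPM over the LKO mice, a log2 fold change of -2.79 ± 0.33 (edgeR, adjusted p = 0.000529). Gsta3, the alpha enzyme with the highest TPM, was at 1275, 735 and 983 CPM in WT and at 520, 670.3 and 354 CPM in LKO. The gap between WT 2 and LKO 2 was small, and the log2 fold change of -0.95 ± 0.29 (edgeR, adjusted p = 0.031) lost its call without WT 1 (-0.74, edgeR, adjusted p = 0.104), WT 3, LKO 1 or LKO 3.

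Gsta2 stood apart from its neighbour. Its levels were 22.1, 17.8 and 13.5 CPM in WT and 15.6, 21.0 and 14.4 CPM in LKO, fully interleaved. The log2 fold change of -0.07 ± 0.22 (edgeR, adjusted p = 0.833) became -0.96 and was called lower with total counts (edgeR, adjusted p = 0.00604). In TPM every LKO mouse lay below every WT mouse, as for 74.9% of all genes (means 39.5 ± 10.4 in WT and 12.1 ± 0.674 in LKO, SD). Limma on log2(TPM + 1) called Gsta2 lower (-1.59, limma, adjusted p = 0.000452). Its share of GST TPM was 0.360 ± 0.0798% in WT and 0.166 ± 0.0201% in LKO, without overlap. Within each mouse the ratio of Gsta2 to Gsta1 in TPM was 0.735, 0.790 and 0.811 in WT and 12.5, 3.51 and 14.3 in LKO, so the order of the pair differed between genotypes whatever the scaling. Gsta1 shares 81.8% of its 100-base stretches with other genes, mainly Gm3776 (71.3%), and Gsta2 shares 35.0%, so counts of these neighbours may not be cleanly separated. Added up, Gsta1 and Gsta2 gave 40.1 ± 10.8 CPM for WT and 19.6 ± 6.09 CPM for LKO, without overlap. Gsta3 and Gsta4 share no such stretch with another gene.

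In the mu class 5 of 7 members fell, Gstm2 was not called and Gstm5 rose. Gstm1, the mu enzyme with the highest TPM, was at 289, 292 and 242 CPM in WT and at 94.7, 73.4 and 73.8 CPM in LKO, with a log2 fold change of -1.77 ± 0.17 (edgeR, adjusted p = 0.000333). Gstm3 had the lowest log2 fold change of the 39 members under TMM. It was at 27.4, 28.5 and 16.7 CPM in WT and at 1.20, 1.92 and 1.32 CPM in LKO, a mean 16.3 times higher in WT, with a log2 fold change of -4.04 ± 0.29 (edgeR, adjusted p = 0.000212), and 13.8% of its 100-base stretches occur in other genes. Gstm6 (-2.43), Gstm7 (-0.88) and Gstm4 (-0.81) fell too, the last of them losing its call in 4 of the 6 fits that each leave out 1 mouse.

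Gstm5 moved the other way. Its level was 3.73, 3.67 and 4.20 CPM in WT and 13.2, 17.5 and 7.61 CPM in LKO, with all LKO mice above all WT mice and a log2 change of 1.72 ± 0.29 (edgeR, adjusted p = 0.00237). It was 0.83 with total counts (edgeR, adjusted p = 0.026) and 0.09 with limma on log2(TPM + 1), where it was not called. Per length and within each mouse, Gstm5 was at 0.0183, 0.0179 and 0.0247 of the TPM of Gstm1 in WT and at 0.198, 0.342 and 0.147 in LKO. The 7 mu genes lie within 149.3 kb (chr3:107895854-108045179, GRCm38.p6), with Gstm5 at one end on the plus strand and the other 6 on the minus strand. Gstm5 shares no 100-base stretch with another gene.

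**Figure D2:**
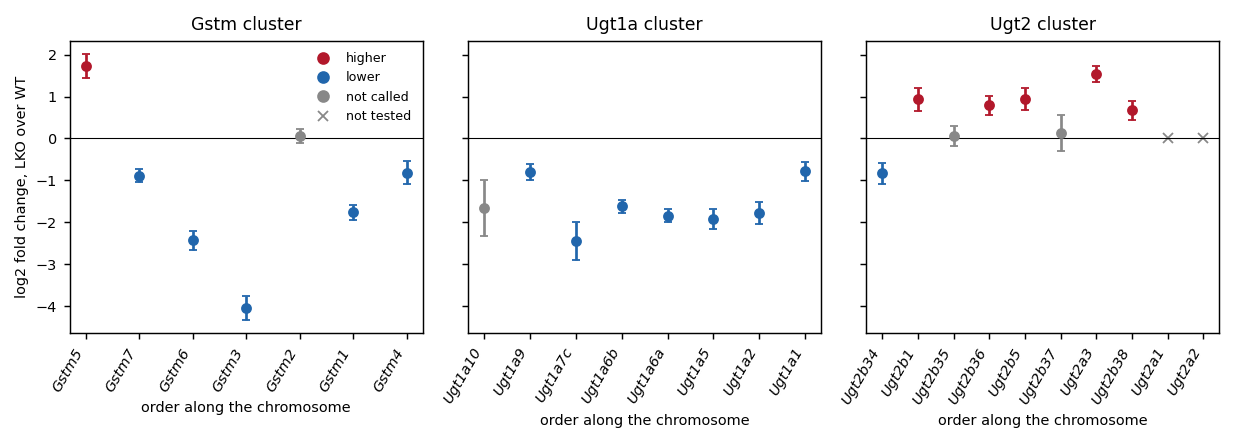
Log2 fold change of LKO over WT after TMM scaling (edgeR, ± SE) for the members of the Gstm, Ugt1a and Ugt2 clusters, in their order along the chromosome, coloured by call, with a cross at 0 for members not tested. The 8 Ugt1a points lie below 0 and Gstm5 lies above 0 at the end of the Gstm cluster; with total counts Gstm2, Ugt2b35, Ugt2b36, Ugt2b37 and Ugt2b38 turn negative.

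In the theta class 1 of 3 tested members rose and 2 were not called. Gstt3, not called under TMM (-0.99 ± 0.36, edgeR, adjusted p = 0.0566), was called lower with total counts (-1.85, edgeR, adjusted p = 0.0026). Gstt2 rose from 33.5, 24.3 and 25.1 CPM in WT to 71.7, 84.8 and 46.7 CPM in LKO, without overlap and with a log2 fold change of 1.29 ± 0.24 (edgeR, adjusted p = 0.00355). That rise was not called with total counts (0.41) and turned to -0.25, also not called, with limma on log2(TPM + 1). Its neighbour Gstt1 was at 132.5, 96.7 and 111 CPM in WT and at 84.2, 99.8 and 53.8 CPM in LKO, which overlapped, with a log2 fold change of -0.52 ± 0.24 (edgeR, adjusted p = 0.117) that was -1.40 and called lower with total counts (edgeR, adjusted p = 0.000883). The ratio of Gstt2 to Gstt1 in TPM separated the genotypes with little spread, at 0.185, 0.187 and 0.168 in WT and 0.632, 0.642 and 0.650 in LKO, and neither gene shares a 100-base stretch with another. Gstk1 was at 114, 97.6 and 108 CPM in WT and 119, 108 and 71.7 CPM in LKO, with a log2 fold change of -0.10 ± 0.20 (edgeR, adjusted p = 0.722) that was -0.96 and called lower with total counts (edgeR, adjusted p = 0.0048). Limma on log2(TPM + 1) called Gstt1 (-2.07, limma, adjusted p = 0.000138) and Gstk1 (-1.66, limma, adjusted p = 0.000281) lower. Gsto1, which reduces dehydroascorbate, was at 29.1, 25.0 and 28.6 CPM in WT and 45.8, 36.8 and 42.8 CPM in LKO. Its log2 fold change of 0.60 ± 0.14 (edgeR, adjusted p = 0.0118) turned to -0.25 with total counts. The rise was not called after a correction for gene length (0.39, edgeR, adjusted p = 0.072) or without WT 2 or WT 3 (edgeR, adjusted p = 0.066 and 0.052). In TPM every LKO mouse lay below every WT mouse for Gsto1, as for 74.9% of all genes. Limma called Gsto1 lower (-0.92 on log2(TPM + 1), limma, adjusted p = 0.0051).

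Mgst1, a membrane-bound enzyme of the endoplasmic reticulum and outer mitochondrial membrane with transferase and peroxidase activity, was the GST with the highest TPM in every mouse. Its level was 3172, 2630 and 3071 CPM in WT and 9007, 13718.5 and 6917 CPM in LKO. The lowest LKO mouse was above the highest WT mouse, the means were 2958 ± 288 and 9881 ± 3484 CPM (SD, n = 3 each), and the log2 fold change was 1.74 ± 0.32 (edgeR, adjusted p = 0.00366). With total counts it was 0.84 and still called (edgeR, adjusted p = 0.0139), whereas with limma on log2(TPM + 1) it was 0.14 and not called. Mgst3 was not called (-0.84 ± 0.45, edgeR, adjusted p = 0.171).

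Shares of the summed TPM of the GST family showed the same contrast without any scaling between libraries. Mgst1 made up 53.0, 56.4 and 56.1% of GST TPM in WT and 89.4, 91.9 and 90.2% in LKO. Gstp1 made up 16.4 ± 0.698% in WT and 2.02 ± 0.316% in LKO, Gsta3 12.9 ± 1.99% and 3.31 ± 0.206%, and the whole mu class 5.13 ± 0.896% and 0.963 ± 0.268%. All members but Mgst1 together made up 44.8 ± 1.89% in WT and 9.51 ± 1.27% in LKO, with no overlap. The ratio of Mgst1 to Gstp1 was 3.18, 3.60 and 3.31 in WT and 41.0, 55.4 and 40.5 in LKO. The summed TPM of the family was 12151, 10171 and 10483 in WT and 7654, 8477 and 6062 in LKO, and the TPM of Mgst1 alone overlapped between genotypes (6020 ± 371 and 6700 ± 1170).

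**Figure D3:**
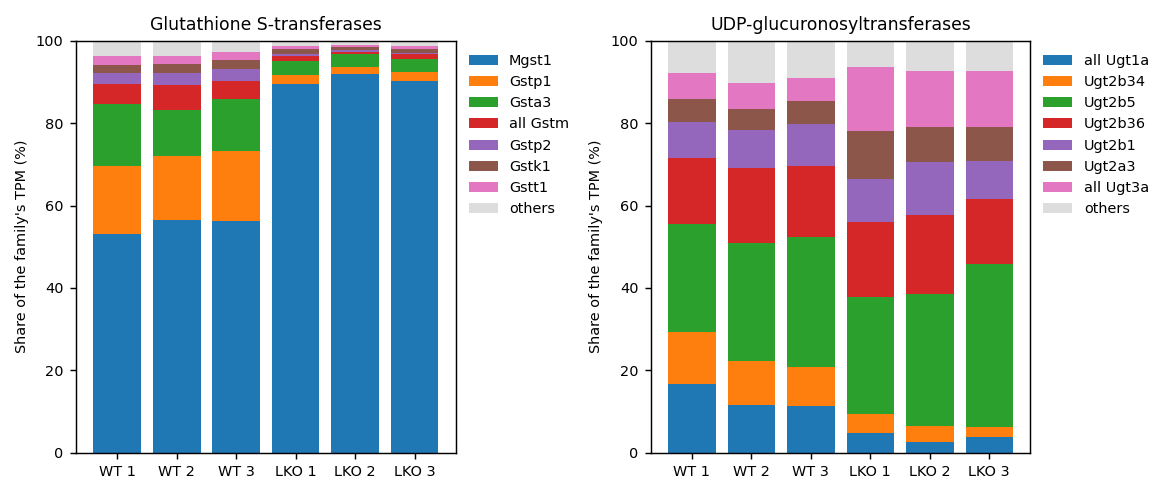
Share (%) of the summed TPM of the GST family (left) and of the UGT family (right) taken by members or classes in each mouse, with all remaining members in grey. Mgst1 takes 53.0 to 56.4% in the WT bars and 89.4 to 91.9% in the LKO bars, and the Ugt1a genes take 11.3 to 16.8% in WT and 2.68 to 4.74% in LKO.

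The Ugt1a genes moved together. Of 8 members 7 fell and Ugt1a10 was not called (-1.65 ± 0.66, edgeR, adjusted p = 0.0792), and all 8 were called lower with total counts. Ugt1a1, the bilirubin-conjugating enzyme, was at 371.5, 213 and 288 CPM in WT and at 186, 149 and 172 CPM in LKO. The WT and LKO mice did not overlap, and the log2 fold change of -0.78 ± 0.22 (edgeR, adjusted p = 0.0224) lost its call without WT 1 (-0.57, edgeR, adjusted p = 0.094), WT 3 or LKO 2. Ugt1a9 was close to it at -0.79 ± 0.19.

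Ugt1a6a, an enzyme for small planar phenols, was at 151, 119 and 135 CPM in WT and at 41.1, 36.9 and 35.1 CPM in LKO. Its log2 fold change was -1.84 ± 0.15 (edgeR, adjusted p = 0.000243), and that of its near relative Ugt1a6b was -1.62 ± 0.16. Ugt1a5 was at 55.95, 29.2 and 35.8 CPM in WT and at 10.6, 10.4 and 11.0 CPM in LKO (log2 fold change -1.92 ± 0.24, edgeR, adjusted p = 0.00067). For Ugt1a2 the values were 15.3, 12.5 and 11.2 CPM in WT and 4.93, 3.87 and 2.51 CPM in LKO (-1.78 ± 0.26, edgeR, adjusted p = 0.00136). Ugt1a7c fell from 8.70, 17.03 and 9.87 CPM to 3.41, 0.889 and 2.21 CPM (-2.44 ± 0.46, edgeR, adjusted p = 0.00377). None of these 4 genes had an LKO mouse within the WT range.

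Because the Ugt1a genes share their last exons, 57.2 to 100% of their 100-base stretches occur in another gene of the locus, and how the reads were divided among them is an estimate. The 8 genes added up gave 1080.5, 743 and 853 CPM in WT and 458, 372 and 416 CPM in LKO, a log2 ratio of the means of -1.10. The whole locus was thus lower in every LKO mouse, by less than most of its single members. It spans 164.6 kb (chr1:88055411-88220002, plus strand, GRCm38.p6).

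Most Ugt2 genes had the opposite sign after TMM scaling. Of 7 Ugt2b genes, which act on steroids, bile acids and many drugs, 4 rose and Ugt2b34 fell (-0.83 ± 0.26, edgeR, adjusted p = 0.0322). With total counts, 0 were higher and 2 lower. The shares of all genes were 19.6% higher and 20.5% lower after TMM scaling, and 6.26% and 51.4% with total counts. Ugt2b5, the UGT with the highest TPM, was at 1051, 1146 and 1501 CPM in WT and 1681, 2737 and 2696 CPM in LKO. The groups did not overlap, but the log2 fold change of 0.94 ± 0.27 (edgeR, adjusted p = 0.0231) was 0.07 with total counts and -0.62 and called lower with limma on log2(TPM + 1) (limma, adjusted p = 0.043), and it lost its call without WT 1, WT 2, LKO 2 or LKO 3 (edgeR, adjusted p up to 0.086). Ugt2b1 (0.94), Ugt2b36 (0.79) and Ugt2b38 (0.67) were called higher under TMM, not called with total counts (0.04, -0.11 and -0.21) and called lower by limma on TPM with either pseudocount. In TPM every LKO mouse lay below every WT mouse for all 7 Ugt2b genes, as for 74.9% of all genes. Leaving out 1 mouse in turn kept the call of Ugt2b1 in 3 of 6 fits, that of Ugt2b34 and Ugt2b36 in 2 each and that of Ugt2b38 in 1. Ugt2b5 and Ugt2b38 share 24.7 and 24.2% of their 100-base stretches with each other. Ugt2b35 (0.05) and Ugt2b37 (0.12) were not called.

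Ugt2a3, in the same cluster on chromosome 5, was at 246, 223 and 293 CPM in WT and at 772, 808.5 and 629 CPM in LKO. Each LKO mouse was above each WT mouse, and the log2 fold change was 1.54 ± 0.19 (edgeR, adjusted p = 0.000671), 0.67 with total counts (edgeR, adjusted p = 0.00972) and -0.0087 with limma on log2(TPM + 1).

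The Ugt3a genes, whose relatives are known to use sugars other than glucuronic acid, both rose. Ugt3a2 was at 246, 239 and 261 CPM in WT and at 921, 1208 and 961 CPM in LKO, a mean 4.14 times higher, with a log2 fold change of 2.05 ± 0.19 (edgeR, adjusted p = 0.000299). It was the only member called higher under TMM, total counts (1.17) and both limma fits of TPM, and the only 1 with all LKO mice above all WT mice in TPM (219, 228 and 220 in WT, 307, 301 and 333 in LKO). Ugt3a1 was at 51.9, 53.4 and 46.8 CPM in WT and at 147, 151 and 113 CPM in LKO (1.43 ± 0.16, edgeR, adjusted p = 0.000489). It was 0.56 with total counts (edgeR, adjusted p = 0.0244) and -0.12, not called, with limma on log2(TPM + 1). Neither gene shares a 100-base stretch with another.

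Within the summed TPM of the UGT family, the Ugt1a genes took 16.8, 11.6 and 11.3% in WT and 4.74, 2.68 and 3.77% in LKO. The Ugt3a genes went the other way, from 6.39, 6.26 and 5.58% to 15.5, 13.7 and 13.6%, and Ugt2a3 from 5.32 ± 0.312% to 9.47 ± 1.89%, both without overlap. The summed TPM of the family was 4152, 4457 and 4633 in WT and 2291, 2469 and 2731 in LKO. The TPM of Ugt2a3 overlapped between genotypes (235 ± 18.4 and 234 ± 29.7), as did that of Ugt3a1 (45.2 ± 5.86 and 41.8 ± 6.35). That of Ugt3a2 did not overlap (222 ± 5.04 and 314 ± 17.2). The Ugt2b genes took 75.4 ± 3.50% and 72.5 ± 3.86%, which overlapped, although Ugt2b34 alone went from 10.9 ± 1.49% to 3.69 ± 1.11%. In each mouse the TPM of Ugt3a relative to Ugt1a was 0.381, 0.541 and 0.495 in WT and 3.28, 5.10 and 3.62 in LKO.

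**Figure D4:**
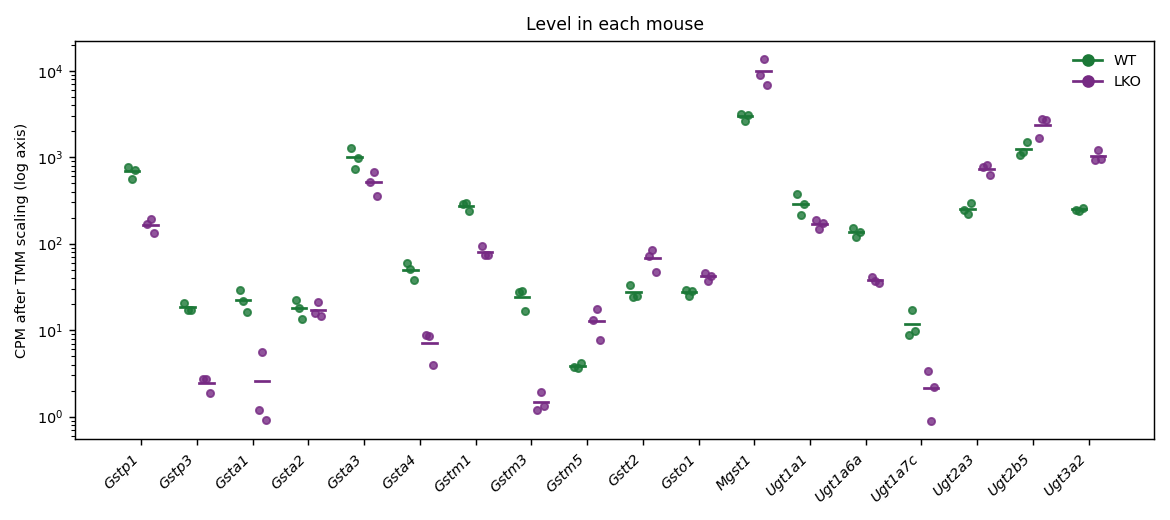
CPM after TMM scaling on a log axis in each WT mouse (green) and LKO mouse (purple) for 18 members, with a horizontal line at each group mean. The groups do not overlap for any of them but Gsta2; Gstm5, Gstt2, Gsto1, Mgst1, Ugt2a3, Ugt2b5 and Ugt3a2 are higher in LKO on this scale, and with limma on log2(TPM + 1) Gsto1, Gstt2, Ugt2a3 and Ugt2b5 turn negative.

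The antioxidant response element is the site through which NRF2, encoded by Nfe2l2, acts on GST genes. RefSeq promoter windows, from 250 bases before to 50 after each start, were searched for its core letters TGACNNNGC on both strands. They occurred in 4 of the 48 windows of members (8.33%), those of Gsta3, Gstm5, Gstm7 and Mgst1, and in 12.4% of all 32851 mouse windows. The stretches of the 2 members that rose are shown with the match in capitals, which lies on the opposite strand in Mgst1.
Gstm5: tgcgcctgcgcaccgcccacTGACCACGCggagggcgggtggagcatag
Mgst1: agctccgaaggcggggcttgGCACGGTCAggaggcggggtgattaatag
They lie at chr3:107895792-107895840 and chr6:138140451-138140499 (plus strand, GRCm38.p6), 42 and 56 bases before the start. Gsta3 and Gstm7 fell, so members with these letters had both signs after TMM scaling. With limma on log2(TPM + 1) the rises of Gstm5 (0.09) and Mgst1 (0.14) were not called. The letters TTCNNNGAA, a site read by STAT factors on both strands, were in 5 of the 48 windows of members (10.4%) and 8.3% of all windows.

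The lists of related genes that follow stand beside 19.6% higher and 20.5% lower of all genes after TMM scaling, and 6.26% and 51.4% with total counts. Among 13 tested genes often counted as NRF2 targets other than the members, 8 were lower and none higher after TMM scaling. The median log2 change was -0.89, and 12 were lower with total counts. Pgd of the pentose phosphate pathway (-2.005 ± 0.18), Gclc, the catalytic subunit of the enzyme that limits glutathione synthesis (-1.91 ± 0.20), the epoxide hydrolase Ephx1 (-1.89 ± 0.15) and malic enzyme Me1 (-1.82 ± 0.33) fell, whereas Nqo1 (0.04), Gclm (0.11) and Srxn1 (0.34) were not called. With total counts Nqo1 (-0.84) and Gclm (-0.76) were called lower and Srxn1 was at -0.50, not called. Of 15 regulators of these genes, 2 were higher and 4 lower, and 0 were higher and 12 lower with total counts. The nuclear receptor Nr1i3 (1.08) and Ahr (0.97) rose, neither being called with total counts and both having a lower mean TPM in LKO with overlapping mice, and Stat5a (-1.34) and Ppara (-1.12) fell. Nfe2l2, named after its values were seen, also fell (-0.76 ± 0.15), and Keap1 was not called (-0.49) but was lower with total counts (-1.32).

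For the supply, breakdown and use of glutathione together, 3 of 13 tested genes were higher and 2 lower, with 1 higher and 10 lower with total counts. Cth, which makes cysteine from cystathionine, was at 190.4, 199 and 210 CPM in WT and 1691, 1660.4 and 1749 CPM in LKO, a log2 fold change of 3.09 ± 0.19 (edgeR, adjusted p = 0.000116), opposite to that of Gclc, which was at 187, 123 and 144 CPM in WT and 47.3, 37.5 and 35.8 CPM in LKO. Ggt5 (1.53) and Ggct (1.23) rose under TMM, were not called with total counts and overlapped in TPM. The cystine transporter Slc7a11 was not tested, with 18, 119 and 88 counts in WT and 0 in each LKO mouse.

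Of 8 genes that supply UDP-glucuronic acid or remove glucuronic acid from conjugates, 1 was higher and 4 were lower, with 1 higher and 6 lower with total counts. Ugp2, which makes UDP-glucose, rose (1.46 ± 0.26, and 0.58 with total counts) but overlapped in TPM, with means of 180.1 in WT and 166 in LKO. Ugdh, which oxidizes UDP-glucose to UDP-glucuronic acid, fell (-0.70 ± 0.18), as did Pgm2 (-0.82). Gusb, which removes glucuronic acid from conjugates, also fell (-0.82). Of 8 genes of conjugate export, 5 were lower and none higher, among them Abcc1 (-0.90), Abcc5 (-0.89), Abcc6 (-0.87) and Abcc3 (-0.81), and with total counts 0 were higher and 7 lower.

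Of 11 tested genes of sulfation, the other main conjugation reaction, 5 were higher and 2 lower. The median log2 change was 0.92, and 4 were higher and 4 lower with total counts. Sult1e1, the estrogen sulfotransferase, had 20, 18 and 3 counts in WT and 560, 1561 and 5173 counts in LKO (log2 fold change 8.14 ± 0.96, edgeR, adjusted p = 0.00054), and Sult1d1 (4.75), Sult1a1 (3.31) and Sult1b1 (2.50) rose too. All 4 were also called with total counts, with log2 fold changes of 7.27, 3.85, 2.42 and 1.60. Among 9 tested relatives outside the 2 families' symbols, 2 were higher and 4 lower (1 and 5 with total counts). Ptges fell from 401, 118 and 119 counts to 0, 3 and 4, Gm3776 (-3.47) and Gm10639 (-1.77) fell, and Ltc4s (2.79) rose with at most 19 counts in any mouse.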

How the data were processed

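The authors sequenced liver RNA of 3 WT and 3 LKO mice, 1 library each, and the genotype label set the group of each sample. Per the labels, 1 µg of RNA and a stranded mRNA kit were used, whereas the methods of the paper name 0.5 µg and a total RNA kit with rRNA removal. The submitters' processing notes name bcl2fastq 2.20.0, FastQC 0.11.7, HISAT2 2.1.0, Bowtie2 2.3.4.1, StringTie 2.1.3b and mm10, and the use of strand in counting was not given in the sources used here. The authors deposited 1 table of 45777 genes with raw read counts from StringTie, FPKM (scaled by gene length and fragment number) and TPM for each mouse. The deposited FPKM served only to give relative gene length, the deposited TPM to give shares within a family.

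Genes with more than 1 zero count were left out, which left 18636. Counts were scaled by TMM and tested in edgeR 4.0.16 (R 4.3.3) by quasi-likelihood, two-sided, with genotype as the factor and Benjamini-Hochberg adjustment over all genes tested. A member was called at an adjusted p under 0.05, and the SE is the absolute log2 fold change divided by the square root of the F statistic. The scripts were tested on simulated data. The exact permutation test of single values cannot go below p = 0.1 for 3 against 3 mice, so no single level is tested that way in the text except Pak4, whose CPM gave p = 0.2 (two-sided, exact permutation). Nothing beyond the littermate design ties mice of the 2 genotypes together, and same-numbered mice did not deviate together (correlations -0.0051, -0.039 and -0.049). Alternatives were other scalings, filters and tests, limma 3.58.1 on log2(TPM + 1) and log2(TPM + 0.1), DESeq2 1.42.0, the replicate number as a block, a lowess correction for gene length (span 0.3), a 2-fold threshold and leaving out each mouse.

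The members and the lists of related genes and markers were chosen with earlier results of these data known. Members with values in every mouse were Gstp1 and Gsta2, the member with the highest TPM of each class, and the 4 largest rises and falls of each family among called members averaging 1 CPM or more, and up to 4 called genes with the largest change were named from each list. Exceptions, named after their values were seen, were Nfe2l2, Slc7a11 and Abcc3. Some results are not reported here. Coordinates and promoter windows (32851) came from RefSeq on GRCm38.p6, in which all 44 members were matched and 40 had a window. Shared stretches of 100 bases were counted between GENCODE transcripts. Counts are whole numbers estimated from coverage, and the total count per mouse (45934632 to 59576437) limits the precision of members with few counts.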

Additional observations from a re-analysis of the deposited data

How the results depend on the processing

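Total counts and TPM called fewer members higher and more lower than TMM. All 19 members called lower under TMM were also called lower with total counts and with limma on log2(TPM + 1) and log2(TPM + 0.1), 16 of them in all 11 other settings and 15 in all 6 fits that leave out 1 mouse. Of the 11 called higher, 1 was called in the 3 scalings, 8 in the 11 other settings and 6 in the 6 leave-one-out fits, and all 11 kept their sign outside the 3 scalings. Total counts gave 5 members higher, 1167 genes higher and 9575 lower in all, and a Pak4 change of -1.54. With limma on log2(TPM + 1), 1 member was higher and 33 lower, 13775 of all genes were called (453 higher, 13322 lower) and Pak4 was at -1.19, and with log2(TPM + 0.1) the values were 1, 33, 14002 (467 higher, 13535 lower) and -2.14. A 2-fold threshold left 19 members, 6 of them higher, and 4639 genes in all, 2185 of them lower. Leaving out 1 mouse gave 6 to 11 members higher (7 without WT 1, 6 without WT 2 and 7 without LKO 2), 15 to 19 lower, and a Pak4 change of -1.08 (without LKO 3) to -0.50 (without LKO 2). Over all genes those fits called 2757 to 3436 higher and 2858 to 3794 lower, of 18928 to 19327 tested.

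Signs turned for Gsta2 (0.013 with upper-quartile scaling, 0.12 without WT 1, 0.035 without LKO 3), Gstk1 (0.087 without LKO 3) and Gsto1 (-0.25 with total counts, -0.92 and -0.95 with the 2 TPM pseudocounts). With those pseudocounts they also turned for Gstt2 (-0.25 and -0.26), Ugt2a3 (-0.0087 and -0.0087), Ugt2b5 (-0.62 and -0.62) and Ugt3a1 (-0.12 and -0.12). Among the other tested members, Ugt2b1 turned with both pseudocounts. Gstm2, Ugt2b35, Ugt2b36, Ugt2b37 and Ugt2b38 turned with both and with total counts. Gstm2, Ugt2b35 and Ugt2b37, not called under TMM, also turned in some fits that leave out 1 mouse, and Gstm2 and Ugt2b37 in some of the other settings. The replicate numbers share only a number, and the replicate block gave 10 members higher and 19 lower and 6431 genes in all, with Gsta3 no longer called (-0.97, edgeR, adjusted p = 0.054). The correction for gene length, like total counts and both limma fits of TPM, called Gstt1 lower (-0.84, edgeR, adjusted p = 0.0126). The causes of these changes were not tested. Depth limits the 5 untested members, which had at most 10 counts in any mouse.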
